A study of Homo sapiens with 2 samples.

Results

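The precursors of several microRNAs (miRNAs) discussed in endothelial ageing were followed in hCMEC/D3, an immortalised line of human endothelial cells from brain microvessels that stands in for the blood-brain barrier in culture. The members were taken by name: every row of the deposited table whose precursor (hairpin) was hsa-mir-22, hsa-mir-217, hsa-mir-216a, hsa-mir-138-1 or hsa-mir-138-2. These were 5 of 1600 hairpins, 9 of 2363 rows and 8 of 2042 mature names, because the hairpins mir-138-1 and mir-138-2 each list miR-138-5p. There was 1 group with 2 small RNA libraries, replicate 2 and replicate 8 in the labels. The labels give no treatment or time point, and do not say whether the replicates came from separate cultures. No conditions could therefore be compared, and a spread over n = 2 describes these libraries, which may differ only technically. As background, hCMEC/D3 was immortalised with the telomerase subunit TERT and a viral large T antigen, so the line is kept in division by introduced genes and is not a senescence model.

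A miRNA is cut from a hairpin whose 5′ and 3′ sides (arms, 5p and 3p) can each be loaded into an Argonaute protein, and the seed near the 5′ end pairs with target mRNAs. In senescence a cell stops dividing for good, often after its telomeres have shortened; TERT, the catalytic subunit of telomerase, counteracts this, and the deacetylase SIRT1 delays it in endothelium. miR-22-3p has been reported to rise in senescent cells and to repress SIRT1. miR-217 has been reported to rise in ageing endothelial cells and to repress SIRT1, and its neighbour miR-216a to repress the autophagy factor BECN1. miR-138-5p, known best from brain, has been reported to repress TERT.

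The mature sequences are printed because the seed decides which members can act alike and because the shared miR-138-5p sequence bears on how its reads were assigned. They are from RefSeq (GRCh38.p14 table), 5′ to 3′, with the seed (bases 2 to 8) in capitals, and all 8 mature names were matched. The table names miR-217 without an arm, and the 5p sequence was taken for it. miR-216b, which is not a member, is added because it is encoded in the same host transcript, and it too was matched to its 5p arm.
miR-22-3p: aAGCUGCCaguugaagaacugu
miR-22-5p: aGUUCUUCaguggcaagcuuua
miR-217: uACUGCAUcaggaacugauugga
miR-216a-5p: uAAUCUCAgcuggcaacuguga
miR-216a-3p: uCACAGUGgucucugggauuau
miR-138-5p: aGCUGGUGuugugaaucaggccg
miR-138-1-3p: gCUACUUCacaacaccagggcc
miR-138-2-3p: gCUAUUUCacgacaccaggguu
miR-216b: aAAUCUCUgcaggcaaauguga

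No 2 members shared a seed. Among the 1797 of 2042 mature names with a RefSeq sequence, only miR-3681-3p carried the seed of a member, that of miR-216a-3p, and it had 0 counts in both libraries. miR-216a-5p and miR-216b matched at 18 of 22 positions and at all 6 of positions 2 to 7. Counted from 1 at the 5′ end and with miR-216a-5p first, they differed by U1A, A8U, U11A and C17A, of which A8U lies in the seed. The 3p arms of the miR-138 hairpins also matched at 18 of 22 positions and differed, with miR-138-1-3p first, by C5U, A11G, C21U and C22U. The 6 detected members began with A or U, and both undetected 3p arms of miR-138 with G. Over all names with a sequence, 69.6% of 474 detected and 63.0% of 1323 other names began with A or U. G came first in 9.5% of the detected and 15.9% of the other names.

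The libraries held 2721287 and 2727675 raw counts after each mature name was reduced to its row with the higher mean count, and levels are given in CPM (counts scaled to these totals). A count of 0 allows up to 3 counts, or 1.10 CPM, in either library. Intervals and limits cover counting error only, since the labels name no molecular identifiers. Ligation efficiency differs between small RNA sequences, so the order of levels below is an order of read counts; the mature sequences are all 22 or 23 bases long. With detection set at 10 or more counts in both libraries, 6 of the 8 member names were detected, against 26.6% of all 2042 mature names.

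miR-22-3p was by far the most abundant member and held 98.2% of all member counts in replicate 2 and 98.4% in replicate 8. The counts of miR-22-3p were 172736 and 182023. The level was 63476 CPM (95% Poisson interval 63177 to 63776) and 66732 CPM (66426 to 67039), which gives 65104 ± 2302 CPM (SD, n = 2). It ranked 5 in replicate 2 and 4 in replicate 8 among the 2042 names. The names nearest to it in level over both libraries were miR-99b-5p, miR-21-5p and miR-100-5p, at distances of 0.26, 0.37 and 0.59 on the log2(CPM + 1) scale.

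The hairpin hsa-mir-22 gives another product, miR-22-5p, which was also detected. It had 438 counts in replicate 2 and 583 in replicate 8. The level was 161 CPM (95% Poisson interval 146 to 177) and 214 CPM (197 to 232), or 187 ± 37.3 CPM (SD, n = 2), at rank 178 and 164. In GRCh37, the build hg19 that the submitters' processing notes name, the 3p arm matched chr17:1617208-1617229 and the 5p arm chr17:1617246-1617267, both on the minus strand and nowhere else. Both lie in the lncRNA gene MIR22HG (chr17:1614741-1620468, same strand), in an exon of 30 of its 32 annotated transcripts that span them.

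miR-217, from hsa-mir-217, was the second of the members. It had 2318 counts in replicate 2 and 1904 in replicate 8. The level was 852 CPM (95% Poisson interval 817 to 887) and 698 CPM (667 to 730), or 775 ± 109 CPM (SD, n = 2), at rank 95 and 101. Replicate 2 was the higher and the counting intervals did not overlap. The names nearest to miR-217 in level were miR-574-3p, miR-28-5p and miR-25-5p, at distances of 0.10, 0.17 and 0.18.

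Both arms of hsa-mir-216a were detected at lower levels. For miR-216a-3p the libraries gave 269 and 246 counts, which correspond to 98.9 and 90.2 CPM, or 94.5 ± 6.13 CPM (SD, n = 2), at rank 214 of the mean profile. miR-216a-5p, the arm reported to act on BECN1, had 152 and 107 counts, which correspond to 55.9 and 39.2 CPM, or 47.5 ± 11.8 CPM, at rank 265 and 286. The 3p arm was the higher in each library. The names nearest to miR-216a-3p in level were miR-365b-5p, miR-184 and miR-532-3p, at distances of 0.11, 0.13 and 0.15.

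miR-138-5p was near the lower end of what was detected. On the hairpin hsa-mir-138-1 it had 12 counts in replicate 2 and 21 in replicate 8. The level was 4.41 CPM (95% Poisson interval 2.28 to 7.70) and 7.70 CPM (4.77 to 11.8), or 6.05 ± 2.33 CPM (SD, n = 2), at rank 555 and 458. On hsa-mir-138-2 it had 8 and 11 counts. The intervals of the libraries overlapped widely. The nearest names in level were miR-539-5p, miR-4742-3p and miR-548q, at distances of 0.06, 0.10 and 0.12, all with counts of this size. miR-138-1-3p had no count in either library. For miR-138-2-3p there were 0 and 2 counts, under the limit of 3 counts.

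**Figure D1:**
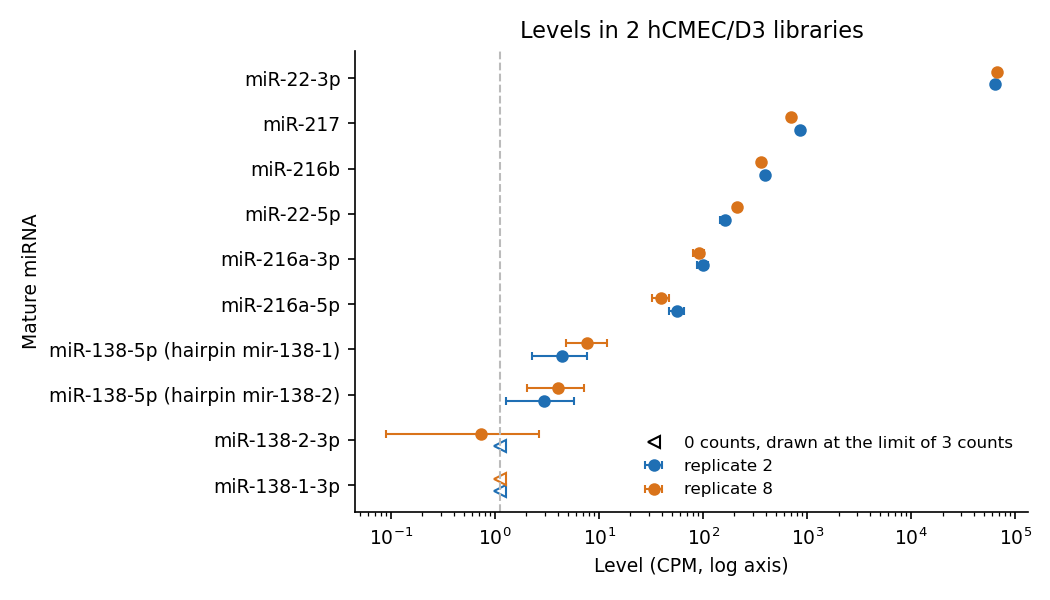
Level of each member row and of miR-216b (CPM, log axis) in replicate 2 and replicate 8, with 95% Poisson intervals; open triangles stand for 0 counts and are drawn at the limit of 1.10 CPM (dashed line). miR-22-3p lies at 63476 and 66732 CPM, miR-217 at 852 and 698 CPM, and the rows of miR-138-5p below 8 CPM.

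The order of the detected members was the same in both libraries: miR-22-3p, miR-217, miR-22-5p, miR-216a-3p, miR-216a-5p, miR-138-5p. The values of neighbours in this order did not overlap between libraries. For miR-216a-3p and miR-216a-5p, the lower value of the first was 90.2 CPM and the higher value of the second 55.9 CPM. miR-22-3p had 74.5 times the counts of miR-217 in replicate 2 (95% interval 71.5 to 77.7) and 95.6 times in replicate 8 (91.4 to 100.1).

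**Figure D2:**
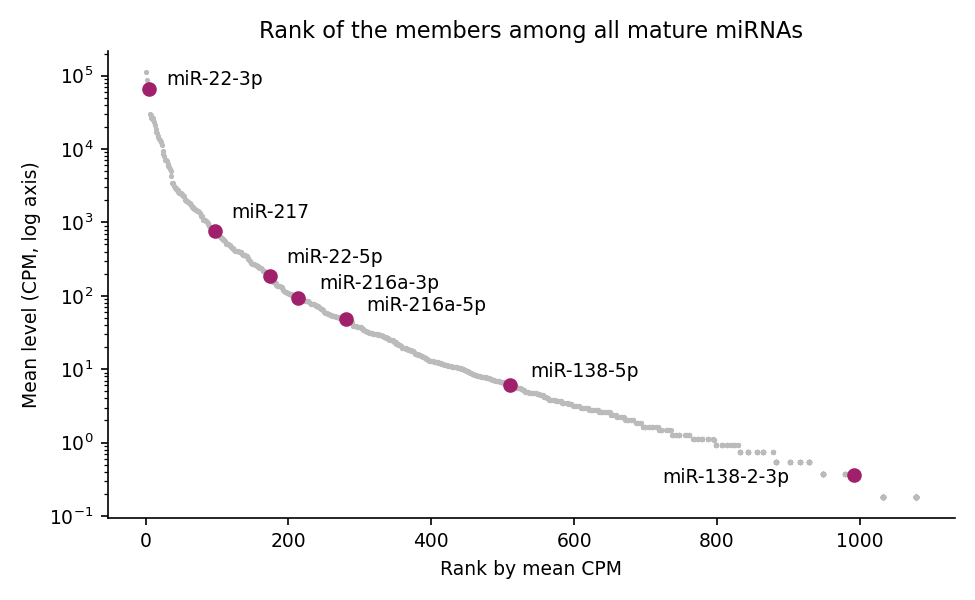
Mean level (CPM, log axis) against rank for all mature names above 0 counts (grey), with the 7 member names that had a count marked. miR-22-3p stands at rank 5 of the mean profile, miR-217 at 97, miR-22-5p at 174, the arms of mir-216a at 214 and 280, and miR-138-5p at 510.

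The miR-217 and miR-216a hairpins belong to one group on chromosome 2. Their RefSeq hairpin sequences matched GRCh37 once each, MIR217 at chr2:56210102-56210211 and MIR216A at chr2:56216085-56216194 (minus strand), with 5873 bases between them. MIR216B lies 11654 bases further upstream at chr2:56227849-56227930. All 3 are inside the lncRNA gene MIR217HG (chr2:56190326-56274461, same strand), and neither of its 2 spanning transcripts has an exon at any of them, so they are intronic. A lncRNA on the opposite strand also spans the group, and whether the counting used strand is not given in the sources used here.

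All products listed for this group were detected. The counts of miR-216b were 1067 and 975, or 375 ± 24.5 CPM (SD, n = 2). The group summed to 1399 CPM in replicate 2 and 1185 CPM in replicate 8, or 1292 ± 151 CPM, of which miR-217 made up 60.9% and 58.9% of counts. miR-217 had 2.17 times the counts of miR-216b in replicate 2 (95% exact interval 2.02 to 2.34) and 1.95 times in replicate 8 (1.81 to 2.11). miR-216b had 3.97 times the counts of miR-216a-3p in replicate 2 (3.47 to 4.55) and 3.96 times in replicate 8 (3.44 to 4.58). The intervals of both ratios overlapped between the libraries. miR-216a-3p had 1.77 times the counts of miR-216a-5p in replicate 2 (1.45 to 2.17) and 2.30 times in replicate 8 (1.82 to 2.91), with intervals that also overlapped. miR-217 had 15.2 times the counts of miR-216a-5p in replicate 2 (12.9 to 18.1) and 17.8 times in replicate 8 (14.6 to 21.8). Along the direction of transcription the levels did not run in one order: the middle hairpin, mir-216a, was the lowest.

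**Figure D3:**
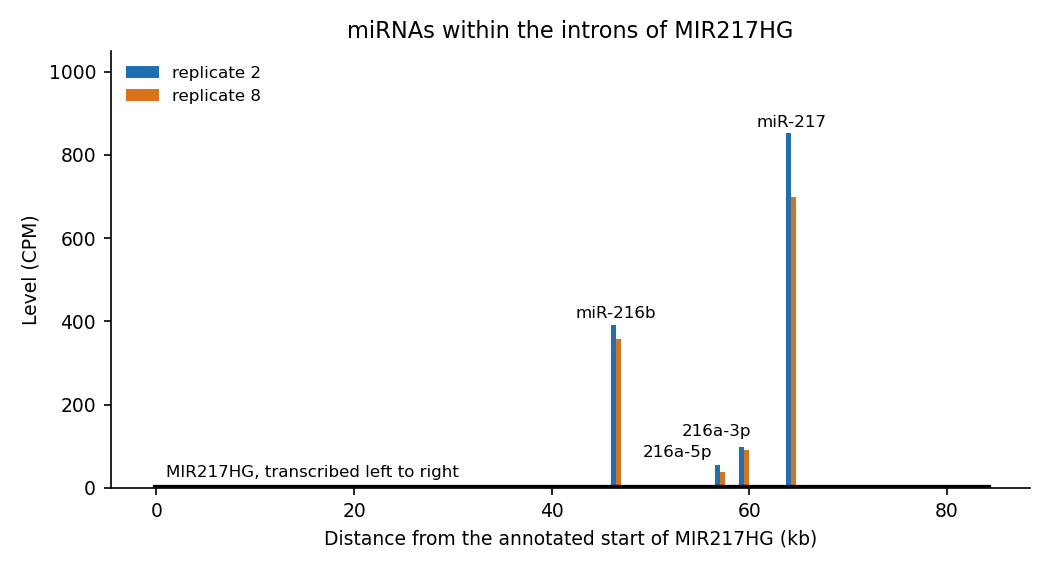
Level (CPM) of miR-216b, the arms of mir-216a and miR-217 in replicate 2 and replicate 8, placed by the distance of each hairpin from the annotated start of MIR217HG (black line); the bars of the mir-216a arms are set side by side around their hairpin, and bars are widened to be seen. The hairpins lie 46.5, 58.3 and 64.2 kb from the start, and miR-217, the farthest, has the highest bars in both libraries.

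These miRNAs are known best from the exocrine pancreas, and other markers were read beside them. Of the pancreas list, the islet miRNA miR-375 had 106 and 98 counts, or 37.4 ± 2.14 CPM (SD, n = 2), and miR-148a-3p had 342 and 47 counts. With miR-216b the list of 3 summed to 557 and 411 CPM. Most of this sum was miR-216b itself (392 and 357 CPM), which comes from the same group as miR-217 and miR-216a and is no separate marker. The endothelial pair miR-126-3p and miR-126-5p summed to 110105 and 115735 CPM. Mural markers (miR-143-3p, miR-145-5p) summed to 835 and 393 CPM, and the 4 epithelial markers to 53.7 and 31.2 CPM. Of the epithelial markers, miR-141-3p had no count in either library, miR-429 had 13 and 0 counts, and miR-205-5p had 15 and 0. The 31.2 CPM in replicate 8 was all miR-200c-3p. The 4 blood markers summed to 15.8 and 6.97 CPM, with all but miR-451a at 0, and the 4 muscle markers to 12.1 and 9.17 CPM, with miR-208a at 0. Of the brain list, miR-124-3p had 3 and 1 counts, miR-9-5p had 117 and 92, and miR-128 had 7313 and 6632; the list summed to 2731 and 2465 CPM. All of these lists but the endothelial one had lower sums in replicate 8, and miR-217 and both arms of mir-216a were lower there too. The difference of miR-216a-3p did not pass the test given below. Lower values in replicate 8 were common. Over all 695 names tested below, the median log2 ratio (replicate 8 over replicate 2) was -0.11, with 23.5% called lower and 10.8% higher. This excess depended on the library sizes: 116 names were lower and 111 higher with TMM sizes, and 113 and 111 with DESeq2 sizes. The part of these lists in the members' levels was not tested. Fewer cells of a type and less RNA per cell cannot be told apart in such libraries.

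The hairpins of miR-216a and miR-138 are shown because their arm counts need the surrounding sequence to be read: in miR-216a both arms were kept, and in miR-138 one arm is identical between 2 loci and the other is not. The sequences are from RefSeq (GRCh38.p14), 5′ to 3′, with the mature arms in capitals.
mir-216a: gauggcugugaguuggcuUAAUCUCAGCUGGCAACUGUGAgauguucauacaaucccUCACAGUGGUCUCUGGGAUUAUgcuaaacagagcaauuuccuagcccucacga
mir-138-1: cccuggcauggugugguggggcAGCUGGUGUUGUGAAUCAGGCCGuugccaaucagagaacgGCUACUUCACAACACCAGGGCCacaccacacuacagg
mir-138-2: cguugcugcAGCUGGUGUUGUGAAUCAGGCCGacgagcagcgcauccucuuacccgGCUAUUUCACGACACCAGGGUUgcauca

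The arms of mir-22 and mir-216a were used in very different proportions. For mir-22 the 3p arm held 99.7% of the hairpin's counts in both libraries, and the 5p arm only 0.253% in replicate 2 (95% Wilson interval 0.230 to 0.278) against 0.319% in replicate 8 (0.294 to 0.346). The intervals for the 5p arm did not overlap. For mir-216a the 3p arm held 63.9% of 421 counts in replicate 2 (59.2 to 68.3) and 69.7% of 353 counts in replicate 8 (64.7 to 74.2), and these intervals did overlap.

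Of the 2 member hairpins with both arms listed and at least 50 counts in each library, mir-22 had an arm above 90% in both libraries and mir-216a had none, against 69.5% of the 197 hairpins that could be compared. The less used arm of mir-216a held a mean share that only 17 of the 197 hairpins exceeded. For mir-22 the share of the minor arm was exceeded by 140 hairpins and undercut by 56. The median minor arm share over the 197 hairpins was 2.72%. For mir-217 the table lists 1 arm only, so arm use was not analysed here.

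**Figure D4:**
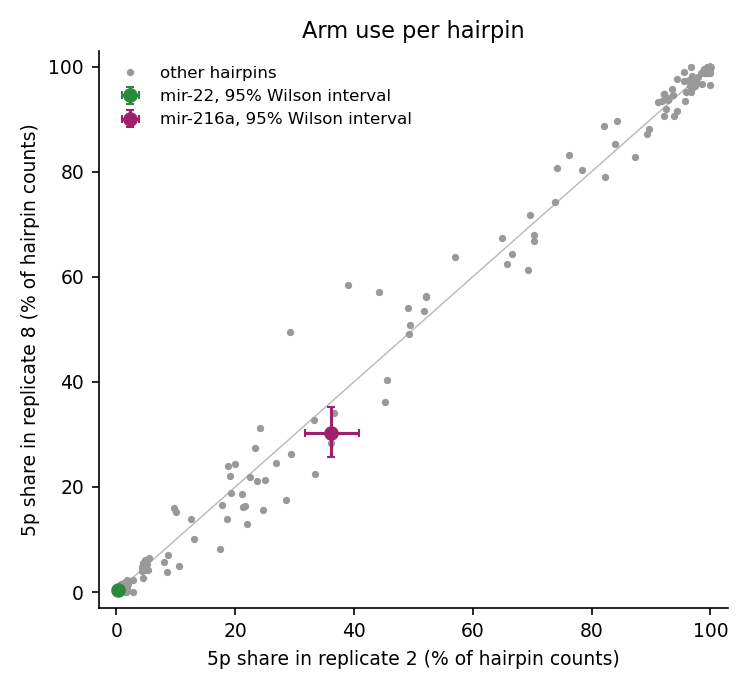
Share of the 5p arm in each hairpin's counts (%) in replicate 2 against replicate 8 for 197 hairpins with at least 50 counts in each library; the line marks equal shares, and mir-22 and mir-216a carry 95% Wilson intervals. mir-22 sits in the lower left corner at 0.253% and 0.319%, and mir-216a among the sparse hairpins with mixed arm use, at 36.1% and 30.3%.

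The miR-138 hairpins lie on different chromosomes, MIR138-1 at chr3:44155704-44155802 and MIR138-2 at chr16:56892430-56892513 (GRCh37, plus strand), and no other annotated gene spans either. The miR-138-5p sequence matched both loci exactly, at chr3:44155726-44155748 and chr16:56892439-56892461, so its reads cannot be placed from the mature sequence. The table nevertheless lists different counts for it: 12 and 21 on mir-138-1, and 8 and 11 on mir-138-2. The summed count of the lower row was 57.6% of the higher. Of 66 names with several rows and at least 20 counts in the largest, 8 had a smallest row under 80% of the largest, miR-138-5p among them. The others had rows closer to each other. For example, miR-9-5p had 117 and 92 counts on each of mir-9-1, mir-9-2 and mir-9-3. In replicate 2, let-7a-5p had 32805, 32758 and 32874 counts on its hairpins. Reads of such names may have been counted at several hairpins, which was not tested. How the authors assigned such reads is not given in the sources used here. If no read were counted at both hairpins, miR-138-5p would stand at 20 and 32 counts, or 9.54 ± 3.10 CPM (SD, n = 2), which is an upper limit. If reads were counted at both, it would be lower, down to the 12 and 21 counts of mir-138-1. The 3p arms, which do differ between the loci, gave 0 counts for mir-138-1 and 2 for mir-138-2 over both libraries, too few to tell which locus the 5p reads came from.

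The libraries were compared with each other by a two-sided exact binomial test on the counts, adjusted by Benjamini-Hochberg over the 695 names with at least 10 summed counts. This test holds counting error only and compares 2 libraries, not conditions. Of the 6 member names tested, 4 had an adjusted p under 0.05, against 34.2% of all names tested. Of these, 2 were higher in replicate 8, against 10.8% of all names, and 2 were lower, against 23.5%. The median log2 ratio (replicate 8 over replicate 2) was -0.03 over the members and -0.11 over all names tested. TMM and DESeq2 sizes raise every log2 ratio by 0.10.

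Both arms of mir-22 were higher in replicate 8. For miR-22-3p the ratio was 0.07 in log2 units (0.06 to 0.08 as its 95% interval, exact binomial adjusted p = 8.6e-49). Of the 367 names with at least 100 summed counts, 83.9% had a larger absolute log2 ratio. miR-22-5p differed by 0.41 (0.23 to 0.59, exact binomial adjusted p = 4.7e-05), and 28.3% of the 367 names had a larger one. With TMM sizes the log2 ratios were 0.17 and 0.51, in the same direction.

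The members from MIR217HG all had log2 ratios below 0, of which those of miR-217 and miR-216a-5p passed the test and that of miR-216a-3p did not. For miR-217 the ratio was -0.29 in log2 units (interval -0.38 to -0.20, exact binomial adjusted p = 1.1e-09), and 42.5% of the 367 names had a larger absolute log2 ratio. For miR-216a-5p it was -0.51 (-0.88 to -0.14, exact binomial adjusted p = 0.017), but with TMM sizes the adjusted p was 0.074 and with DESeq2 sizes 0.075. miR-216a-3p stood at -0.13 (-0.39 to 0.12, exact binomial adjusted p = 0.49), and miR-216b also -0.13 (-0.26 to -0.01, exact binomial adjusted p = 0.096). With TMM sizes the last pair stood at -0.03 and -0.04. For miR-138-5p the log2 ratio was 0.78 with an interval from -0.29 to 1.96 (exact binomial adjusted p = 0.31), so a difference was not detectable at this depth.

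**Figure D5:**
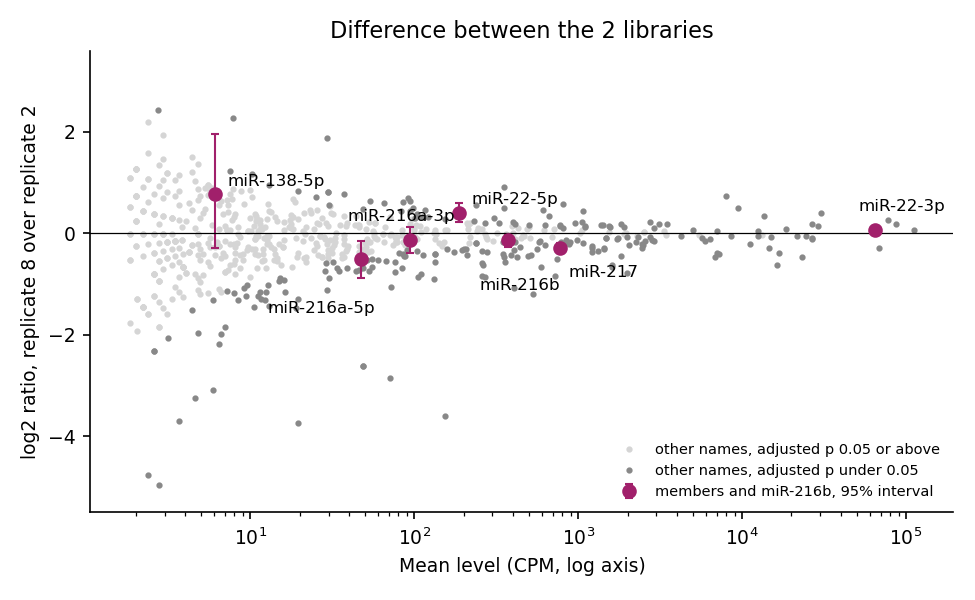
Log2 ratio of replicate 8 over replicate 2 against mean level (CPM, log axis) for 695 names (dark grey: exact binomial adjusted p under 0.05), with the 6 member names tested and miR-216b and their 95% intervals. The members lie within the cloud of names of like level, from miR-216a-5p at -0.51 to miR-138-5p at 0.78, the latter with the widest interval.

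The members were set beside 14 other miRNAs reported in ageing or senescent endothelium, some of them for their decline. Of these, 13 of 14 were detected, and 6 had a higher mean level than miR-217. On this list only miR-126-3p, the main endothelial miRNA, and miR-21-5p, a widely expressed growth-related miRNA, exceeded miR-22-3p. miR-34a-5p, a p53-induced miRNA that also represses SIRT1, had 114 and 178 counts, or 53.6 ± 16.5 CPM (SD, n = 2), less than miR-217 and near miR-216a-5p. miR-132-3p had 797 and 1133 counts, or 354 ± 86.6 CPM, also below miR-217. miR-200c-3p had 118 and 85 counts, or 37.3 ± 8.63 CPM. From the miR-17-92 group, which has been reported to fall in ageing cells, miR-17-5p had 4317 and 3502 counts, or 1435 ± 214 CPM, and miR-20a-5p had 1657 and 1736 counts, or 623 ± 19.5 CPM. The lowest mean level of the list was that of miR-106a-5p, with 38 and 26 counts. miR-199a-5p had 99 and 7 counts and so missed the detection threshold.

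Between the libraries, 4 of the 14 were higher and 6 lower in replicate 8 by the exact binomial test, against 10.8% higher and 23.5% lower of all names tested. With TMM or DESeq2 sizes 7 were higher and 3 lower, and miR-181a-5p and miR-92a-3p changed direction. Of all 695 names, 111 were higher and 116 lower with TMM sizes, and 111 and 113 with DESeq2 sizes. The median log2 ratio was -0.08 over the list and -0.11 over all names tested. miR-34a-5p was higher in replicate 8 by 0.64 in log2 units (0.29 to 0.99, exact binomial adjusted p = 0.0010), and miR-132-3p by 0.50 (0.37 to 0.64, exact binomial adjusted p = 3.4e-13). On the lower side, miR-199a-5p had the largest log2 ratio of the list, -3.73 (exact binomial adjusted p = 5.0e-21). There, miR-19b-3p stood at -0.43 (exact binomial adjusted p = 0.0014) and miR-17-5p at -0.31 (exact binomial adjusted p = 1.6e-19). These are not changes with senescence, since the libraries are replicates of one group.

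Among 8 other miRNAs reported to target TERT, 5 were detected. miR-532-5p stood far above the rest, with 7938 and 9030 counts, or 3114 ± 278 CPM (SD, n = 2). The others were of the order of miR-138-5p: miR-1266 had 45 and 51 counts, miR-491-5p had 30 and 28, miR-133a had 21 and 16, and miR-299-3p had 17 and 18. miR-498, miR-512-5p and miR-1182 had no count in either library, which allows up to 1.10 CPM. Of the 5 tested, miR-532-5p was higher in replicate 8 by 0.18 in log2 units (exact binomial adjusted p = 2.3e-15) and none was lower. Of all names tested, 10.8% were higher and 23.5% lower, and 5 names are too few to place the list against these shares. The list's median was 0.08, against -0.11 over all names tested.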

How the data were processed

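Small RNA from 2 hCMEC/D3 libraries was read from one table. Per the file headers, the authors deposited raw counts and RPM (scaled reads) per mature miRNA and hairpin. Per the submitters' processing notes, CASAVA 1.9, FastQC, cutadapt, Bowtie 0.12.7 and the build hg19 were used; the counting step is not given in the sources used here. Per the labels' protocols, both adaptors were ligated, cDNA was amplified by PCR and the miRNA fraction cut from a gel. Each name was reduced to its row with the higher mean count. The test was an exact binomial test (scipy 1.17.1), with log2 ratios after adding 0.5 counts. It was checked on simulated counts that varied by counting error only, so the check does not cover other variation between libraries. edgeR 4.0.16 (TMM) and DESeq2 1.42.0 gave alternative sizes only. Arms were located by exact match to GRCh37 with GENCODE annotation. Named miRNAs were all member rows, the 3 names nearest in level to the main arm of each detected hairpin, names sharing a seed, miRNA genes within 10 kb and the fixed lists. An arm-less table name stood for the listed arm. The members and lists were chosen with earlier results of these data known.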

Additional observations from a re-analysis of the deposited data

How the results depend on the processing

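Over 23 results on the members and on the share of hairpins with a dominant arm, 108 values were recomputed. Of these, 95 stayed close to those reported, 11 moved, 2 lost the test's threshold and none changed direction. The other lists are not among these results, and in them miR-181a-5p and miR-92a-3p changed direction with TMM or DESeq2 sizes. The limit was 1 SD between the libraries for levels, ranks and arm shares, and 1.5 times for counts. For the share of hairpins with a dominant arm it was the 95% Wilson interval (62.8 to 75.5). That interval takes the 197 hairpins as independent, although some repeat the same counts, such as mir-9-1, mir-9-2 and mir-9-3. With n = 2, a level or arm share from a single library always lies within 1 SD of the mean. Leaving out a library could therefore not move these values, which are counted among the 95. On the deposited RPM scale, and with repeated rows summed, the denominator is larger: miR-22-3p stood at 55549 RPM and 55753 CPM, miR-217 at 661 RPM and 664 CPM, and miR-216a-3p at 80.7 RPM and 81.0 CPM, the latter at rank 229. Single libraries gave ranks of 4 to 5 for miR-22-3p, 164 to 178 for miR-22-5p and 265 to 286 for miR-216a-5p. miR-216a-5p kept its direction but had an adjusted p of 0.074 with TMM sizes and 0.075 with DESeq2 sizes, leaving 3 of 6 members past the threshold. Over all names these sizes gave 111 higher and 116 lower with TMM and 111 and 113 with DESeq2, against 75 and 163 as reported. With at least 500 counts over both arms, 81.9% of 116 hairpins had an arm above 90%; the cause was not tested. At 1, 5 or 100 counts in both libraries, 6, 6 and 5 members were detected. No paired analysis was possible because there is 1 group. Depth limits miR-138, whose 3p arms were at or under 3 counts.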
